A study of Mus musculus with 6 samples.

Results

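The AP-1 and Egr immediate early factors were followed here as 10 genes: Fos, Fosb, Fosl1 and Fosl2 of the Fos family, Jun, Junb and Jund of the Jun family, and Egr1, Egr2 and Egr3 of the Egr family. They were chosen by gene symbol, out of 19893 symbols that had a row in all 6 count tables. RNA sequencing had been done on spheres from MMTV-HER2/Neu mice of the FvB strain, in which the promoter of the mouse mammary tumour virus drives the Neu (ErbB2) oncogene in mammary epithelium. Spheres called early lesion (EL) were grown from the mammary glands of animals aged 14 to 18 weeks in which no tumour could be felt, and primary tumour (PT) spheres from breast tumours of animals older than 20 weeks. There were 3 libraries per group, and all carried the transgene. Both kinds of cells had spent 7 days on ultra-low adhesion plates in mammosphere medium, so each value describes cultured spheres and not the tissue. In the EL samples the word lung also stands in the tissue field, no sort of cells is described, and the labels leave unsaid if replicates were different animals. A p-value here accordingly reflects only how far these libraries spread, possibly for technical reasons.

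Fos and Jun proteins are basic leucine zipper factors that pair to form AP-1. Jun proteins can pair with each other or with a Fos protein, whereas Fos proteins need a Jun partner, and the pair binds the TPA response element (TRE) or the related cAMP response element (CRE). Egr proteins are zinc finger factors that bind a GC-rich site. Most of these genes are switched on within minutes of a growth factor signal through MAP kinases, serum response factor (SRF) at the CArG box and CREB at the CRE, and Neu is a receptor that feeds into the same kinases. Jund is the AP-1 gene known for steady expression in resting cells.

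The RefSeq promoter table (GRCm38.p6, which is mm10) held sequences for 7 of the 10 genes, and no entry for Fosl1, Egr1 and Egr3. The bases just upstream of the start are shown for Fos, Junb, Jun and Egr2. These 4 hold letter matches to sites known from the induction of immediate early genes, as does Fosb, which is not shown. The values below differ between the 4. Each stretch is written 5′ to 3′ on the gene's own strand, with the matched sites in capitals. Fos and Junb are shown with the core of the CRE, TGACG (Fos also with TATAAA), Jun with the TRE-like site TGACATCA, and Egr2 with a CArG box followed by that core on the opposite strand.
Fos, chr12:85473640-85473889, plus strand: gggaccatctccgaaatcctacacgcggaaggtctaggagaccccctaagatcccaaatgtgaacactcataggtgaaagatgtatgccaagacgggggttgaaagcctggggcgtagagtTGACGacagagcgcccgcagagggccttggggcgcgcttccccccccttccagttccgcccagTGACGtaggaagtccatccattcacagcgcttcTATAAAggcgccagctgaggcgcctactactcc
Junb, chr8:84978749-84978998, minus strand: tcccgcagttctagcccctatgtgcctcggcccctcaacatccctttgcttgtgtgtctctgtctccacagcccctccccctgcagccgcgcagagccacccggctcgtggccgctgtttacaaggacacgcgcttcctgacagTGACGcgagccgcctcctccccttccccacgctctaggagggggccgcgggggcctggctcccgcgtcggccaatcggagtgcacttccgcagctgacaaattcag
Jun, chr4:95052223-95052472, minus strand: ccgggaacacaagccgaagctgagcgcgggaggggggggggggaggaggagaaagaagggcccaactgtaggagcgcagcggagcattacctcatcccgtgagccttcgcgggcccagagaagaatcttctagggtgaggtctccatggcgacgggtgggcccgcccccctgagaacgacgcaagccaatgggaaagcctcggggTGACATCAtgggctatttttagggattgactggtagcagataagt
Egr2, chr10:67537790-67537819, plus strand: cctcagtCCATATATGGgcagcgaCGTCAc

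Counted back from the start site, the Fos window held TGACG at bases 129 to 125 and 66 to 62 and TATAAA at bases 33 to 28. In Junb the core lay at bases 106 to 102, and in Jun TGACATCA lay at bases 45 to 38. In Egr2, which has 5 listed starts, the 30 printed bases lie 79 to 50 bases before the start at base 67537869, with the CArG box at bases 72 to 63. That start was picked as the most upstream one whose window held both sites. Its window held a further TGACG at bases 111 to 107, and the window of the start at base 67537566 held another CArG box. Egr2 thus had 5 windows to match in, whereas the shares given next are per single window. Both strands were searched over the 250 bases before each start. Among 32851 such windows in the table, TGACG was found in 17.8%, TATAAA in 12.4%, TGACATCA in 2.93% and the CArG box in 1.47%. The core is part of the full CRE, TGACGTCA, which 1.55% of windows held, and the TRE, TGAGTCA or TGACTCA, was in 4.46%. Neither of these was matched in the windows of the 7 genes. The Egr site GCGNGGGCG, present in 4.7% of all windows, was matched in Fosb at bases 50 to 42, where TGACG also lay at bases 60 to 56, and in Fosl2 at bases 79 to 71. These are letter matches only, and binding was not measured.

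Total counts per library ran from 69759793 to 85126630, the lowest from an EL replicate 1 table that breaks off early, and 13844 genes were tested, all 10 members among them. Between an EL and a PT library, log2 CPM correlated across genes at 0.839 to 0.847, and replicates of a group at 0.995 or more. Levels are CPM, in which TMM factors set the library sizes, and log2 fold changes are PT minus EL from edgeR's quasi-likelihood test with Benjamini-Hochberg adjustment over all tested genes. The label of breast cancer cells was checked against markers: the 11 epithelial markers summed to 2745 to 2777 CPM in EL and 8951 to 9328 CPM in PT libraries, whereas the 10 fibroblast markers summed to 63236 to 67837 CPM in EL and to 633 to 757 CPM in PT. The EL spheres thus held abundant transcripts of fibroblast genes. In such bulk libraries, fewer cells of a type and less RNA per cell cannot be told apart.

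Of the 10 genes, 3 rose in PT (Fos, Fosl2 and Jund), 6 fell (Fosb, Fosl1, Junb, Egr1, Egr2 and Egr3), and Jun did not pass the threshold of 0.05. The background was high: 80.7% of all tested genes were called, 39.9% higher and 40.8% lower, so that 9 calls in 10 genes is near the share of any gene. The values of EL and PT did not overlap for 9 of the 10, against 82.7% of all tested genes. A change over 2-fold was called in 3 of the 10, Egr2, Fosl1 and Jund, where 28.8% of all tested genes had one. The median log2 fold change was -0.29 over the 10 genes and 0.00 over all tested genes, and the median size regardless of sign was 0.49 against 0.45. With library totals, 4 of the 10 were called higher (Jun joining Fos, Fosl2 and Jund), 4 lower (Fosl1 and the 3 Egr genes), and the median was -0.04. On that scaling 65.8% of all called genes were higher, and the median over all tested genes was 0.25. By family, with TMM factors, all 3 Egr genes fell, the Fos family split evenly, with 2 higher and 2 lower, and in the Jun family 1 gene rose, 1 fell and 1 was not called.

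**Figure D1:**
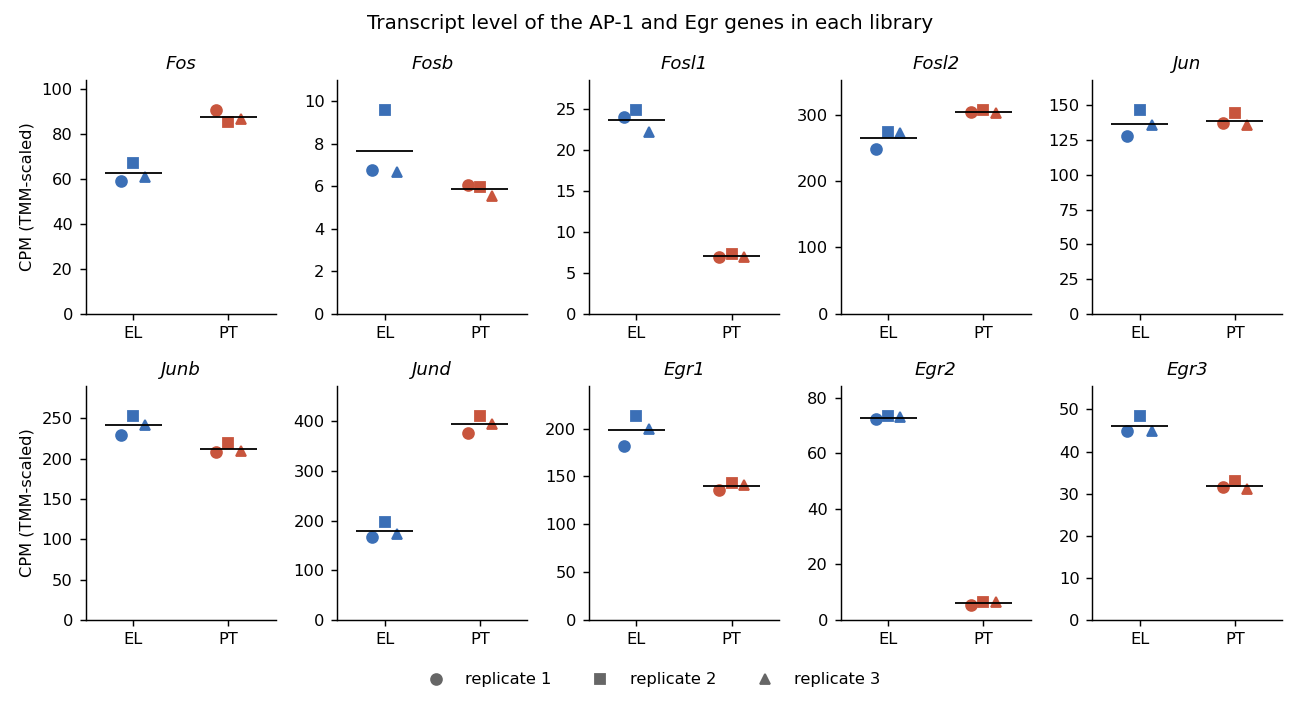
TMM-scaled CPM (vertical axes, each from 0) of the 10 genes in 3 EL and 3 PT libraries; points are libraries, shapes mark replicate numbers and lines the group means. Egr2 and Fosl1 drop to a fraction of their EL level, Jund lies above it in every PT library, and the Jun points of the groups overlap.

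Egr2 showed the lowest fold change of the 10. It encodes the zinc finger factor known for its role in Schwann cell myelination and in lymphocytes, and it lies at chr10:67534469-67542188 on the plus strand. The EL libraries held 72.2, 73.2 and 73.0 CPM and the PT libraries 5.17, 6.24 and 6.34 CPM. EL values were almost equal, and each lay more than 10 times above every PT value. The means were 72.8 ± 0.532 and 5.91 ± 0.649 CPM (SD, n = 3 each), a 12.3-fold lower level in PT (log2 fold change -3.62, SE 0.06; edgeR adjusted p = 9.37e-15). Lower log2 fold changes were found for 7.84% of the tested genes, and a fall over 8-fold was called in 9.38%. The PT value still rested on 265, 333 and 353 counts.

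Egr1, the family's general growth-factor-induced member (chr18:34861207-34864956, plus strand), fell far less. It stood at 182.0, 212.8 and 199.8 CPM in EL and at 135.7, 142.8 and 141.5 CPM in PT, without overlap. The means were 198 ± 15.4 and 140.0 ± 3.78 CPM, with a log2 fold change of -0.50 (SE 0.05; edgeR adjusted p = 6.17e-07). Egr3, a relative known from muscle spindles and lymphocytes (chr14:70077317-70082613, plus strand), read 44.9, 48.4 and 44.8 CPM in EL and 31.6, 32.9 and 31.0 CPM in PT. Its groups did not overlap either, and its log2 fold change was -0.53 (SE 0.04; edgeR adjusted p = 1.36e-07). The intervals of the Egr1 and Egr3 changes overlapped, -0.61 to -0.40 and -0.63 to -0.44 at 95% confidence, while that of Egr2 ran from -3.75 to -3.49. When plain library totals replaced the TMM factors, the values were -0.25 for Egr1 and -0.28 for Egr3, both still called.

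The ratio of 2 genes within a library does not depend on the scaling between libraries. For Egr1 over Egr2 counts it was 2.52, 2.91 and 2.74 in EL and 26.3, 22.9 and 22.3 in PT, an 8.76-fold rise of the mean from 2.72 ± 0.193 to 23.8 ± 2.13. Egr3 over Egr2 rose from 0.632 ± 0.0249 to 5.43 ± 0.621, or 8.59-fold. Per kilobase of transcript, Egr2 lay above Egr3 in all EL libraries (24.6 ± 0.179 against 11.7 ± 0.515 CPM) and below it in all PT libraries (1.99 ± 0.219 against 8.08 ± 0.243 CPM). An exact permutation test of 3 against 3 cannot go below a two-sided p of 0.1, so the separation of these ratios is given as a description.

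Fosl1, which encodes Fra-1, a Fos protein without a transactivation domain that is often linked to invasive cells, was the other gene with a large fall. It lies at chr19:5447698-5455938 on the plus strand. EL libraries read 23.9, 24.8 and 22.2 CPM and PT libraries 6.94, 7.25 and 6.88 CPM. The groups were far apart, and the PT values lay within 0.4 CPM of each other. The means of 23.6 ± 1.33 and 7.02 ± 0.196 CPM gave a 3.37-fold lower level in PT (log2 fold change -1.75, SE 0.06; edgeR adjusted p = 2.49e-11). Ccdc85b overlaps Fosl1 on the opposite strand and also fell (from 42.4 ± 2.34 to 21.1 ± 1.58 CPM; edgeR adjusted p = 3.74e-09). Reads of the overlap cannot be told apart here, as no source used here gives the strand setting of the counting.

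Fos, the classical partner of Jun (chr12:85473890-85477274, plus strand), moved the other way. It rose from 59.0, 67.1 and 60.9 CPM in EL to 90.4, 85.1 and 86.3 CPM in PT, with no overlap. The means were 62.3 ± 4.23 and 87.3 ± 2.76 CPM, a 1.40-fold rise (log2 fold change 0.49, SE 0.05; edgeR adjusted p = 5.47e-07). Fosl2, which encodes Fra-2 (chr5:32136472-32157840, plus strand), read 248.8, 274.9 and 272.3 CPM in EL and 304.0, 307.3 and 303.0 CPM in PT. The rise was small beside the spread of all genes, with a log2 fold change of 0.20 (SE 0.04; edgeR adjusted p = 3.12e-04), but every PT library was above every EL library. With library totals the log2 fold changes were 0.73 for Fos and 0.45 for Fosl2.

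Fosb, whose short protein form accumulates in neurons after repeated stimulation (chr7:19302696-19310118, minus strand), was the scarcest of the 10 on a per-length scale. Its EL libraries read 6.78, 9.56 and 6.65 CPM and its PT libraries 6.04, 5.95 and 5.55 CPM. EL replicate 2 stood above the other EL libraries, which lay close to the PT values. The log2 fold change was -0.39 (SE 0.13; edgeR adjusted p = 0.0137). Fosb did not pass in edgeR with EL replicate 2 left out (-0.20, adjusted p = 0.0720), with PT replicate 3 left out (-0.35, adjusted p = 0.0517) or with library totals (-0.14, adjusted p = 0.307), and its fall rests largely on EL replicate 2.

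Within the Fos family, the count ratio of Fos to Fosl1 went from 2.46, 2.71 and 2.75 in EL to 13.03, 11.75 and 12.55 in PT, a 4.71-fold rise of the mean. Fosl2 over Fosl1 went from 11.2 ± 0.951 to 43.4 ± 0.888, or 3.86-fold. Both ratios were higher in each PT library than in any EL library. Relative to Fosl1, both genes thus stood higher in PT.

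Jund showed the highest fold change of the 10. It lies at chr8:70697739-70700616 on the plus strand and encodes the Jun protein that is not typical of immediate early genes. EL libraries held 166.4, 196.8 and 173.2 CPM and PT libraries 377.5, 410.1 and 395.7 CPM. Each PT library was far above each EL library. The means were 179 ± 16.0 and 394 ± 16.3 CPM, a 2.21-fold rise (log2 fold change 1.14, SE 0.05; 95% interval 1.02 to 1.26; edgeR adjusted p = 3.80e-10). A higher log2 fold change was found for 7.79% of the tested genes. The antisense gene Gm11175 overlaps Jund and was not tested.

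Jun, which encodes c-Jun (chr4:95049036-95052222, minus strand), stood at 127.9, 146.5 and 136.0 CPM in EL and at 136.9, 144.4 and 135.7 CPM in PT. The groups overlapped. Its log2 fold change was 0.02 (SE 0.05; edgeR adjusted p = 0.646), with a 95% interval from -0.08 to 0.12 on this scaling. With library totals it was called higher (0.27, edgeR adjusted p = 8.64e-05), and without EL replicate 1 or PT replicate 2 it was -0.022 and -0.0019, so no direction is given for Jun. The antisense gene Junos overlaps Jun and was not tested.

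Junb, whose protein often opposes c-Jun in growth control (chr8:84976909-84978748, minus strand), read 229.8, 252.6 and 241.9 CPM in EL and 208.3, 219.7 and 209.8 CPM in PT. The groups did not overlap, and the log2 fold change was -0.18 (SE 0.04; edgeR adjusted p = 6.47e-04). With library totals it turned to 0.06 and was not called (edgeR adjusted p = 0.124), so the fall of Junb holds relative to the TMM scaling. Prdx2, on the opposite strand, overlaps the annotated span of Junb and went the other way (0.29, SE 0.03). The ratio of Jund to Junb counts, free of that scaling, was 0.724, 0.779 and 0.716 in EL and 1.81, 1.87 and 1.89 in PT. Every PT ratio was above every EL ratio, a 2.51-fold shift of the mean. Jund over Jun rose from 1.31 ± 0.0352 to 2.84 ± 0.0796.

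**Figure D2:**
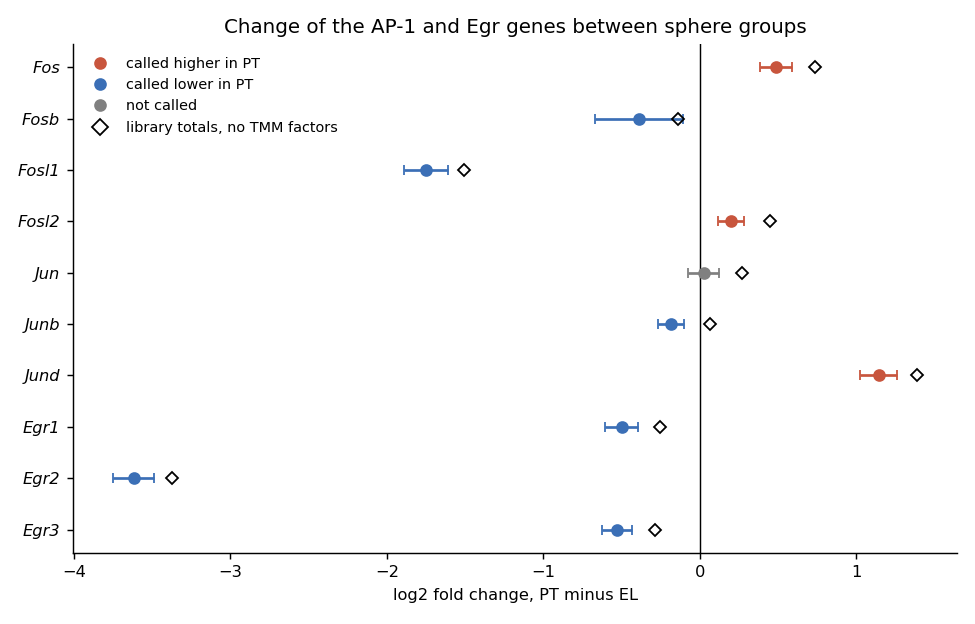
Log2 fold change of PT minus EL for the 10 genes (horizontal axis) with 95% intervals, filled points from TMM scaling and open diamonds from library totals. Library totals move every gene to the right by about the same amount, so that Junb crosses 0 and Jun leaves it, while Egr2, Fosl1 and Jund keep their sides.

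Levels can be set against each other only per transcript length, here as CPM per kilobase of the GENCODE transcript that corresponds to the RefSeq rows. On this scale Junb led in EL with 133 ± 6.28, followed by Jund at 107 ± 9.57, Egr1 at 65.3 ± 5.09, Jun at 42.9 ± 2.92 and Fosl2 at 40.6 ± 2.20. Below them came Fos at 29.6 ± 2.01, Egr2 at 24.6 ± 0.179, Fosl1 at 12.7 ± 0.712, Egr3 at 11.7 ± 0.515 and Fosb at 2.03 ± 0.435. Among neighbours in this order, the EL libraries overlapped for Jun with Fosl2 and for Fosl1 with Egr3, and separated the other 7 neighbouring pairs.

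In PT the order by CPM per kilobase changed at both ends. Jund led with 236 ± 9.79, ahead of Junb at 118 ± 3.41. Fosl2 at 46.6 ± 0.337, Egr1 at 46.1 ± 1.24, Jun at 43.6 ± 1.48 and Fos at 41.4 ± 1.31 followed as a group in which each neighbouring pair overlapped. Egr3 at 8.08 ± 0.243, Fosl1 at 3.77 ± 0.105, Egr2 at 1.99 ± 0.219 and Fosb at 1.55 ± 0.0695 came last, with no overlap between neighbours. Egr2 thus went from the seventh to the ninth place. The Jund length matters, because its RefSeq span of 2878 bases is longer than the 1668 bases used. With the longer length Jund stood at 62.1 ± 5.55 in EL and 137 ± 5.67 in PT, so that Junb led in EL and Jund in PT with either length. The second place of Jund in EL did not hold with the longer length, where it lay below the mean of Egr1 and their libraries overlapped.

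As shares of its family's CPM per kilobase, Jund went from 37.8 ± 0.968% of the Jun family in EL to 59.5 ± 0.545% in PT, and Junb from 47.1 ± 0.963% to 29.6 ± 0.345%. With the longer Jund length, tried after the data were seen, Jund went from 26.0 ± 0.795% to 46.0 ± 0.561% and Junb from 56.0 ± 0.878% to 39.4 ± 0.341%. Fosl1 made up 15.0 ± 0.900% of the Fos family in EL and 4.04 ± 0.134% in PT, while Fos went from 34.8 ± 0.596% to 44.4 ± 0.893%. In the Egr family, Egr2 held 24.2 ± 1.19% in EL and 3.54 ± 0.305% in PT, and Egr1 64.3 ± 1.45% and 82.1 ± 0.242%. The summed level per kilobase was 84.9 ± 4.55 in EL and 93.3 ± 1.20 in PT for the Fos family, 284 ± 18.5 and 398 ± 14.2 for the Jun family, and 102 ± 5.68 and 56.2 ± 1.57 for the Egr family. In none of the 3 families did the sums of EL and PT libraries overlap, where 82.7% of all tested genes did not. The Fos family sums came close, at 89.7 in EL replicate 2 and 92.5 in PT replicate 3. With the longer Jund length the Jun family stood at 238 ± 14.6 and 298 ± 10.1, again without overlap.

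**Figure D3:**
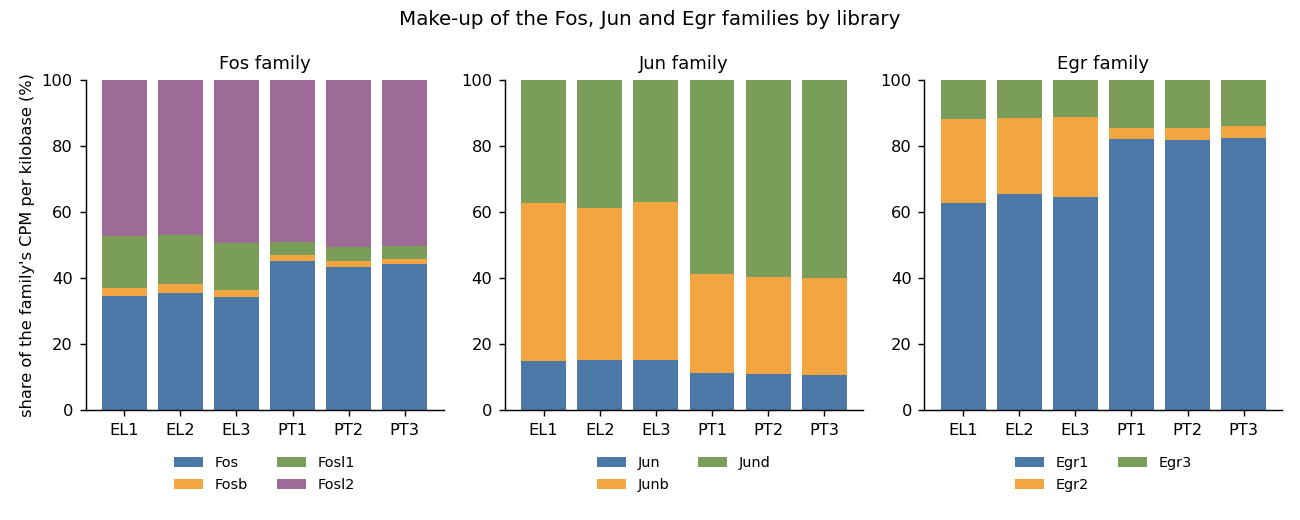
Share of each gene in the summed CPM per kilobase of its family (vertical axis, percent), one bar per library. With the 1668-base Jund length drawn here, Jund takes the larger part of the Jun family in all PT libraries (46.0% on average with 2878 bases), and Egr2 and Fosl1 shrink to 3.54% and 4.04% on average.

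All 10 genes had their highest EL value in EL replicate 2, where 31.7% of the tested genes did. Relative to the mean of the other EL libraries, EL replicate 2 was higher by a median of 0.13 on the log2 scale over the 10 genes (range 0.01 to 0.48), against 0.00 over all tested genes. Of 26 other immediate early genes, 12 were highest there, and of the 7 pericyte markers 5, but none of the 10 fibroblast or 9 endothelial markers. Without that library, 3 of the 10 genes were still called higher and 5 lower, Fosb being the one lost. What set this library apart was not tested.

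The marker lists also differed between the groups. Of the 10 fibroblast, 9 endothelial and 7 pericyte markers all were lower in PT, with median log2 fold changes of -6.39, -6.07 and -3.95. Their summed levels went from 261 to 283 CPM to 6.03 to 6.57 CPM for endothelium and from 512 to 554 CPM to 44.2 to 47.2 CPM for pericytes. Of 11 epithelial markers 10 rose (median 1.49) and 1, the basal keratin gene Krt5, fell. Of 7 tested macrophage markers 6 rose (median 2.51; 1 more listed gene had no row in all tables), and their sum went from 61.9 to 80.6 CPM to 155 to 179 CPM. Lymphocyte markers summed to 3.14 to 4.23 CPM in EL and 0.702 to 1.06 CPM in PT, with Cd3e, Cd3g, Cd8a and Ms4a1 at 0 in all PT libraries. Both tested adipocyte markers were lower, and the sum of that list went from 21.4 to 25.4 CPM to 2.57 to 3.07 CPM. Of 3 tested lung markers 2 rose, and the 9 listed summed to 15.7 to 17.7 CPM in EL and 121 to 132 CPM in PT, with Sftpa1, Scgb1a1 and Nkx2-1 at 0 in all 6 libraries. Some of these lists fell and others rose, so any called gene shares its direction with some of them. Nothing is therefore read from the directions of Egr2 (-3.62), Fosl1 (-1.75), Jund (1.14) or the other called members. The part of cell makeup in these changes was not tested.

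Genes upstream of the 10 went both ways. Among all tested genes, 39.9% were called higher and 40.8% lower, which is the background for each list below with TMM factors. With library totals the background itself moved up. There 65.8% of called genes were higher, against 49.5% with TMM factors, and the median over all tested genes was 0.25. The library-total counts below stand beside that share. Of 11 SRF, ETS and CREB side factors, 5 rose and 4 fell (median log2 fold change 0.09), and 7 rose and 2 fell with library totals. Srf itself, the factor of the CArG box, rose from 79.4 ± 2.04 to 135 ± 1.45 CPM (0.76, SE 0.03), and its cofactor gene Mkl2 by 0.60 and Creb1 by 0.26 on the log2 scale. Elk3, an ETS partner of SRF, fell from 116 ± 3.34 to 45.0 ± 2.04 CPM (-1.37, SE 0.04). Of 19 tested MAP kinase genes 7 rose and 7 fell (median 0.01), and with library totals 12 rose and 5 fell. Mapk3, which encodes ERK1, rose by 0.50 (SE 0.03) and Map2k1, which encodes MEK1, fell by 1.04 (SE 0.06). Map2k2 was not called (0.01, SE 0.03), but was with library totals (0.26).

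Other immediate early genes also went both ways, as did the background of all tested genes. Of 26, 11 rose and 13 fell (median -0.08), and 13 rose and 10 fell with library totals. The matricellular gene Ctgf rose from 292 ± 20.6 to 878 ± 26.8 CPM (1.59, SE 0.05) and the stress response gene Ier3 from 160 ± 6.06 to 459 ± 6.08 CPM (1.52, SE 0.03). Zfp36l1, which encodes a protein that destabilises AU-rich mRNAs, rose by 0.33 (SE 0.03). Rhob, a small GTPase gene, was at -0.22 (SE 0.03), and at 0.03 and not called with library totals.

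Partner genes also split. Of 14 tested basic leucine zipper genes whose proteins can pair with Fos or Jun, 4 rose and 9 fell (median -0.49), and 6 rose and 7 fell with library totals. Atf4, a factor of the amino acid and stress response, fell from 320 ± 7.70 to 248 ± 5.21 CPM (-0.37, SE 0.03), and to -0.12 and still called with library totals. The small Maf gene Mafk rose by 1.04 (SE 0.04) and Atf2, a classical Jun partner, by 0.45 (SE 0.03). For the Egr proteins, the corepressor gene Nab1 rose by 0.22 (SE 0.03). Its relative Nab2 was not called (-0.03, SE 0.04, and 0.22 and called with library totals). Wt1, whose protein binds a similar GC-rich site, fell from 10.6 ± 2.50 to 0.0744 ± 0.0157 CPM. The PT libraries read only 0.0585, 0.0749 and 0.0898 CPM for Wt1, a handful of reads each, so the size of its fall is not firm. Egr4 was too low to be tested.

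Known AP-1 target genes had the lowest median of the 8 pathway lists examined. Of 18 tested, none rose and 16 fell, with a median log2 fold change of -2.58. With library totals 2 rose and 16 fell. Proteases led among abundant targets, with Mmp13 falling from 2334 ± 364 to 16.2 ± 1.34 CPM (-7.17, SE 0.12) and Mmp3 from 1930 ± 228 to 9.94 ± 1.20 CPM (-7.60, SE 0.10). Timp1, a protease inhibitor, fell by 5.29 (SE 0.09), and Spp1, the secreted phosphoprotein osteopontin, from 18164 ± 718 to 2820.1 ± 86.2 CPM (-2.69, SE 0.04). The 2 targets that were not called, named after their values were seen, were Plaur (-0.05, SE 0.06), the urokinase receptor, and Ccnd1 (0.03, SE 0.03), cyclin D1. The 10 fibroblast markers fell by a median of 6.39, and the summed level of the Fos and Jun families per kilobase was higher in PT. Which cells made the target transcripts, and the part of AP-1 or of cell makeup in their fall, was not tested.

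Targets attributed to Egr1 were mixed. Of 12 tested, 4 rose and 7 fell (median -0.45), and 5 rose and 6 fell with library totals. Thbs1, which encodes thrombospondin, rose from 396 ± 44.9 to 1396 ± 72.4 CPM (1.82, SE 0.07). Tgfb1 fell from 239 ± 9.59 to 49.3 ± 3.68 CPM (-2.28, SE 0.05) and Vegfa by 1.11 (SE 0.09). The lists share genes: Vegfa is also counted among the AP-1 targets that fell, and Nab2 also stands in this Egr1 target list. Of 7 genes that act on the turnover or activity of Fos and Jun proteins, 3 rose and 3 fell. With library totals 5 rose and none fell, where 65.8% of all called genes were higher. Fbxw7, a ubiquitin ligase component that recognises phosphorylated c-Jun, rose from 36.8 ± 1.76 to 80.2 ± 3.20 CPM (1.12, SE 0.04), and Itch, another ligase, by 0.40 (SE 0.03). Csnk2a1 rose by 0.12 (SE 0.03), and Gsk3b was at -0.11 (SE 0.04) but was called in the other direction with library totals (0.14).

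**Figure D4:**
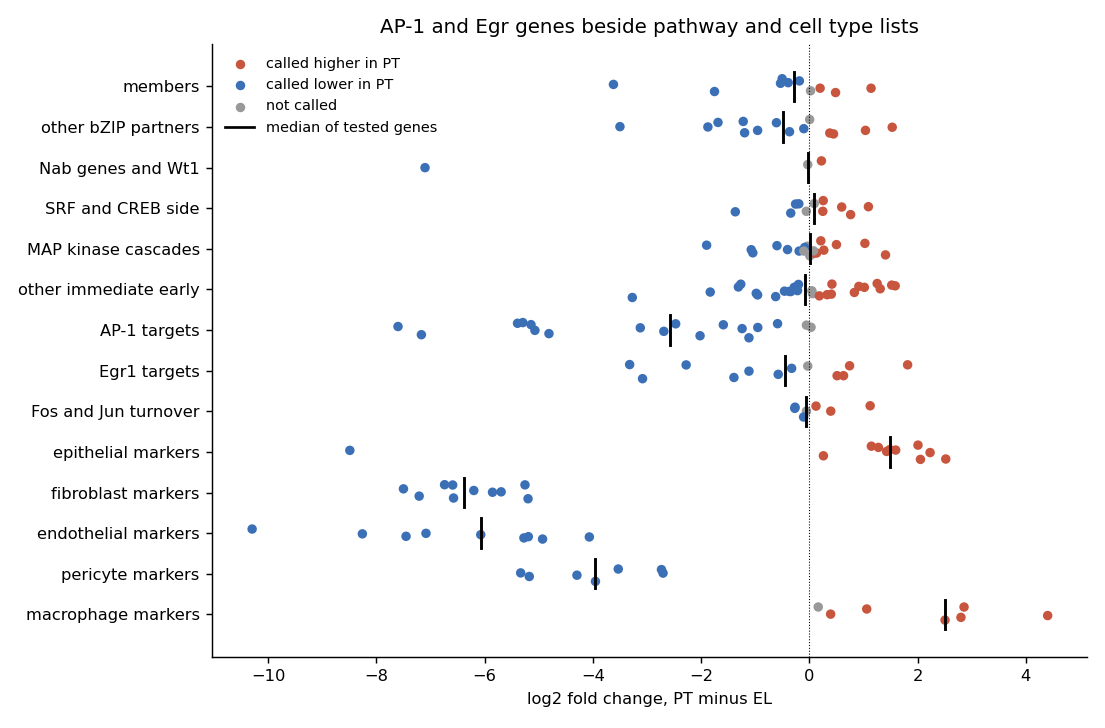
Log2 fold change of PT minus EL (horizontal axis) for the tested genes of each list, 1 point per gene, colours by call and black bars for list medians. The 10 AP-1 and Egr genes lie on both sides of 0, the AP-1 target list lies at or below it with a median of -2.58, and the fibroblast and endothelial markers lie lowest.

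The genes nearest to Jund and Egr2 were found by the Euclidean distance of mean-centred log2 CPM over the 6 libraries. All tested genes were searched except the members, pseudogenes and predicted or clone-named models. Nearest to Jund were Slpi, a secreted protease inhibitor gene of epithelia (distance 0.0806; log2 fold change 1.20), the glycosyltransferase gene B4galt6 (0.0934; 1.11) and the cytochrome P450 gene Cyp2d22 (0.105; 1.11). Slpi went from 136 to 312 CPM on average. Nearest to Egr2 were Numbl, the Numb-like gene of cell fate control (0.130; -3.64), the receptor phosphatase gene Ptprz1 (0.175; -3.68) and the secreted factor gene Ism1 (0.176; -3.73). With 6 libraries in 2 groups, the distance mostly reads the size of the step between EL and PT.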

How the data were processed

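RNA-seq counts of 3 EL and 3 PT sphere libraries were used. The authors deposited raw whole-number counts per RefSeq transcript with a gene symbol, 1 table per library; the totals differ between libraries, as in counts that were not normalised. Per the submitters' processing notes, STAR, featureCounts and DESeq2 were used with the builds mm10 and hg19; versions, parameters and the strand setting were not given in these sources. A complete table has 33068 rows. That of EL replicate 1 lacks 5404 of them, so the row with the highest mean count among rows present in all 6 tables was taken for each of 19893 symbols. Fitting used all 6 libraries in edgeR 4.0.16 (R 4.3.3): filterByExpr, TMM factors (0.914 to 0.922 for EL, 1.09 for PT), a quasi-likelihood test of group and Benjamini-Hochberg adjustment at 0.05. SE is the log2 fold change over the root of F. On simulated counts at these library sizes, 185 of 196 changed genes were called and 5 unchanged ones among 13721 genes. Few genes were changed there, in both directions, and all shared a common dispersion, whereas 80.7% of genes were called in the real data. The simulation thus could not test the scaling or the calls in so wide a contrast. CPM carry SDs over 3 libraries, and counts per gene set the precision: the 10 genes had between 265 and 22027 counts per library. Replicates of a group differed by more than sampling noise (chi-square per degree of freedom 2.89 to 12.3), so none was treated as a repeat. Jund has 2 rows with the same counts and Egr3 3 nearly equal rows. Lengths come from GENCODE M21, positions and promoter bases from RefSeq GRCm38.p6. The members, picked by symbol as gene families, and the 16 context and marker lists were chosen with earlier results of these data known. Named are the 10 genes, up to 4 tested genes per context list with the highest mean CPM, and the 3 genes nearest in pattern to the highest and lowest called member; some genes this rule selects are not reported here. The alternatives were other scalings (library totals, RLE or upper-quartile factors), other count filters, DESeq2 1.42.0, limma-voom (limma 3.58.1), a 2-fold minimum, summed rows, the 5 complete tables, a replicate block and each library left out.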

Additional observations from a re-analysis of the deposited data

How the results depend on the processing

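Egr2, Fosl1 and Jund kept their direction and call under all 17 alternatives, with log2 fold changes of -3.67 to -3.37, -1.79 to -1.50 and 1.09 to 1.39. Fos, Fosl2, Egr1 and Egr3 kept theirs except against a 2-fold minimum, where edgeR called 3401 genes in place of 11173, and 1 of the 10 genes higher and 2 lower. With 1 library left out, 10758 to 11283 genes were called, with 3 of the 10 genes higher each time and 5 to 6 lower. Library totals raised all log2 fold changes by a median of 0.25 and the share of called genes that were higher in PT from 49.5% to 65.8%. They turned Junb to 0.064, Nab2 to 0.22, Rhob to 0.029 and Gsk3b to 0.14. Jun changed sign in the 5 complete tables (-0.028), and with 1 library left out it ran from -0.022 without EL replicate 1, through -0.0019 without PT replicate 2, to 0.074. Nab2 did so with upper-quartile factors (0.028) and ran from -0.067 to 0.0026 (without EL replicate 1), and Map2k2 did so with a filter of 50 counts (-0.00053) and ran from -0.012 (without EL replicate 2) to 0.045. The cause of these changes was not tested beyond the scaling itself. No pairing by replicate number was seen: deviations of same-numbered EL and PT libraries correlated at 0.022, 0.008 and -0.002. Those of differently numbered libraries correlated at -0.031 to 0.027. With so few libraries, these values cannot settle whether same-numbered libraries belong together. With the replicate block, edgeR called 11203 genes, 3 of the 10 higher and 6 lower. Among the 10 genes, the lowest counts behind a value were 265 for Egr2 in PT replicate 1 and 267 for Fosb in EL replicate 3. Genes of the context lists, such as Wt1 in PT, rested on fewer. With the RefSeq span as its length, chosen after the data were seen, the share of Jund in its family moved to 26.0% in EL and 46.0% in PT.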
